A study of Mus musculus with 2 samples.

Results

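Guanylate-binding protein genes and genes of the Ifi200 family were examined in rib chondrocytes of mice carrying the V156D knock-in mutation of Matn1 and of wild-type mice. The 8 genes followed were Gbp2, Gbp2b, Gbp3, Gbp4, Gbp6, Gbp7, Ifi202b and Ifi203, and every probe set annotated to any of them was taken, alone or with other genes. This gave 15 of the 45037 probe sets on the Affymetrix Mouse Genome 430 2 array, of which 10 were tied to a single gene and 5 to several. The single-gene probe sets covered 7 of the 8 genes, and Gbp4 was measured by a multi-gene probe set alone. The V156D mutant group was 1 array and the wild-type group was 1 array, both of cartilage cells released from dissected ribs with collagenase at 5 days of age. Per the series' design text, cells of 5 littermates of known genotype were pooled before RNA extraction, so each array is a pool and no spread between animals was measured. Whether the mutant mice carried the allele on both chromosomes, and the strain and sex of the animals, stand in none of the sources used here. The mutated protein, matrilin-1, is secreted by chondrocytes and assembles into oligomers in cartilage. With 1 array per genotype no test was possible, and precision is limited by the number of arrays. These genes were chosen with their values on these arrays known, so their differences are a description of the pair of arrays.

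Guanylate-binding proteins are large GTPases of the dynamin superfamily that are strongly induced by interferon-gamma. They assemble on the membranes of intracellular pathogens and their vacuoles and promote inflammasome responses. Proteins of the Ifi200 family, also called PYHIN proteins, carry HIN domains that can bind DNA, and most also carry a pyrin domain for contacts with other pyrin proteins. The mouse family includes Aim2, the cytosolic DNA sensor that forms an inflammasome, and Ifi202b, whose protein p202 lacks the pyrin domain and is known to restrain Aim2. The Ifi202b transcript is also known to differ in level between inbred mouse strains. Interferons act on such genes through the interferon-stimulated response element, bound by IRF proteins, and through the gamma-activated site, which serves responses to interferon-gamma.

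Promoter windows are shown for the 3 guanylate-binding genes that differed most, for their neighbour Gbp7 and for Ifi202b, so that the interferon motifs of each can be read beside its values. The windows run from 250 bases before to 50 bases after an annotated start, 5′ to 3′ in the direction of the gene, and are RefSeq sequences of GRCm38.p6. Capitals mark matches on either strand to the response element core GAAANNGAAA, whose reverse complement is TTTCNNTTTC, and to the gamma-activated site TTCNNNGAA.
Gbp2, chr3:142620413-142620712, plus strand: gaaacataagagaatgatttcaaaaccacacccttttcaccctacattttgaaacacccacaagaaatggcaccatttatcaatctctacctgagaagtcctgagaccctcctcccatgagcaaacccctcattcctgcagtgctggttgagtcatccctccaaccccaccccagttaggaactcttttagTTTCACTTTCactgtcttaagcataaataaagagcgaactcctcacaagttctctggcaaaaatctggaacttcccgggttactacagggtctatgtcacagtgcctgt
Gbp2b, chr3:142594597-142594896, plus strand: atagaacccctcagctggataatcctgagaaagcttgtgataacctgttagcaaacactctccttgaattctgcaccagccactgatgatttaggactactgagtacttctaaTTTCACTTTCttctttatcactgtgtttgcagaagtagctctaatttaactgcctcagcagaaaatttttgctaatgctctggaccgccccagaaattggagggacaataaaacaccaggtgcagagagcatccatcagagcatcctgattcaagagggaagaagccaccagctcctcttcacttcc
Gbp3, chr3:142559794-142560093, plus strand: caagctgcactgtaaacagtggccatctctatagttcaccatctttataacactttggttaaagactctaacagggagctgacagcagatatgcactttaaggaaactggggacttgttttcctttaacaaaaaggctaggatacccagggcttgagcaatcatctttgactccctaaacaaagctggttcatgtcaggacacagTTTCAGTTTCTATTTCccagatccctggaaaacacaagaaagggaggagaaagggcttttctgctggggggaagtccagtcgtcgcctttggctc
Gbp7, chr3:142530086-142530385, plus strand: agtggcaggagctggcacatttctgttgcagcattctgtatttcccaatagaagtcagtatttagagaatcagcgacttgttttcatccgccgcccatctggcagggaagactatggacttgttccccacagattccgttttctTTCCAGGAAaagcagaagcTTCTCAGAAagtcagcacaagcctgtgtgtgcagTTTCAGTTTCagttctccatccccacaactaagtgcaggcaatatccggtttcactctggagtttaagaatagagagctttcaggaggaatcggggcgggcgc
Ifi202b, chr1:173982795-173983094, minus strand: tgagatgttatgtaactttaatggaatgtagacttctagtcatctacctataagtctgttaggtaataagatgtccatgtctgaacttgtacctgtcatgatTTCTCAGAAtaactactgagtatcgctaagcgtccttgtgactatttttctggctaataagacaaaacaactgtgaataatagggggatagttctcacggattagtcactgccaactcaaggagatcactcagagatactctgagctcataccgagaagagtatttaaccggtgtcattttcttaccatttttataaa

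The response element core was found in all 4 of the Gbp windows printed and not in that of Ifi202b. Across all 32851 promoter windows of the same length, 3.44% held this core and 8.3% held the gamma-activated site. Gbp2 and Gbp2b shared the same 10 letters, TTTCACTTTC, which began 59 bases before the start of Gbp2 and 137 bases before that of Gbp2b. Gbp3 held 2 overlapping cores, TTTCAGTTTC and TTTCTATTTC, which together make a run of 3 repeats spaced alike, a longer form found in 0.116% of windows. Gbp7 held 1 core and 2 gamma-activated sites, TTCCAGGAA and TTCTCAGAA, and the second of these was also the only match in Ifi202b. RefSeq windows were matched for 6 of the 8 genes, 8 windows in all. A second window of Gbp3 held neither motif, and 1 of the 2 overlapping windows of Ifi203 held a core, GAAATCGAAA. A match is a run of letters and does not show that a factor binds there.

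Transcripts of 3 guanylate-binding genes and of Ifi202b had less signal in the mutant array, whereas those of Gbp6, Gbp7 and the single-gene probe set of Ifi203 had similar signals in both arrays. Values are deposited probe set intensities on a linear scale, a log2 ratio is mutant over wild type, and a gene is represented by whichever of its single-gene probe sets was brightest on average over both arrays. Signals were judged low when they lay below a floor, the median of the mean log2 signals of all probe sets, which is an intensity of 54.6. Of the 7 genes with a single-gene probe set, 5 lay at or above this floor, and 3 of these 5 were at least 2-fold lower in the mutant array, against 0.256% of the 11329 genes at or above the floor. None of the 5 was at least 2-fold higher, against 0.653% of the same genes. All 7 had log2 ratios below 0, as had 52.1% of all 18193 genes measured. The median log2 ratio of the 7 was -1.07, whereas that of all genes was -0.01. These counts follow from how the genes were chosen and are not evidence about the family. The central 95% of the log2 ratios of genes at or above the floor ran from -0.55 to 0.49, and the difference between the 2 brightest probe sets of a gene had an SD of 0.26 over 4878 genes, which is probe error and not error between samples.

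**Figure D1:**
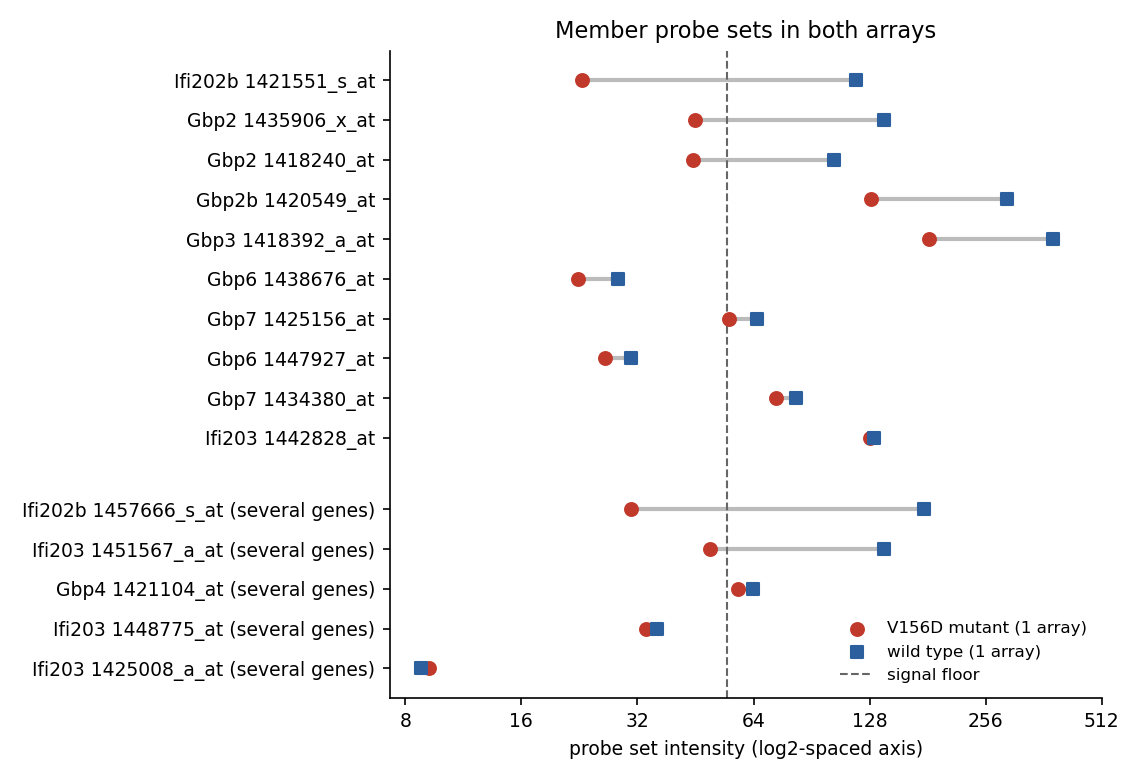
Intensity of each of the 15 probe sets (horizontal axis, log2-spaced) in the V156D mutant array (circles) and the wild-type array (squares), with grey lines joining the pair and the dashed line at the signal floor of 54.6. The 10 single-gene probe sets stand above the 5 multi-gene ones, and in 7 of the 15 the mutant circle lies at least 2-fold left of the wild-type square.

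Gbp2, a guanylate-binding protein recruited to vacuoles of Toxoplasma and of bacteria in mouse cells, had the lowest ratio of the 6 guanylate-binding genes. Its probe set 1435906_x_at had an intensity of 45.2 in the mutant array and 140 in the wild-type array, a log2 ratio of -1.63. Its second probe set, 1418240_at, had 44.5 in the mutant array and 103 in the wild-type array, a log2 ratio of -1.22. The mutant array was thus the lower one by both probe sets, 3.09-fold and 2.32-fold, and their ratios averaged -1.42 ± 0.29 (SD over 2 probe sets, not over samples). Both mutant values lay below the signal floor and both wild-type values above it. Among genes at or above the floor, Gbp2 had the second lowest ratio, at rank 2 of 11329.

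Gbp2b, formerly called Gbp1 in the mouse, was also lower in the mutant array and stayed above the floor in both. Its single probe set 1420549_at had 129 in the mutant array and 290 in the wild-type array, a log2 ratio of -1.17, or 2.25-fold lower. It ranked 9 from the lowest of 11329 genes. Gbp3, another member of the same cluster, had 182 in the mutant array and 382 in the wild-type array by its single probe set 1418392_a_at, a log2 ratio of -1.07, or 2.09-fold lower. It ranked 25, close to the 2-fold threshold, and its ratio was -0.95 with 32 added to every intensity before log2. Both genes had signal above the floor in each array, so neither ratio rests on a value near the lower end of the scale.

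Gbp7, which is known from mouse macrophages for a role in the oxidative killing of bacteria, did not share this difference. Its probe sets 1434380_at and 1425156_at had 73.4 and 55.2 in the mutant array, and 82.6 and 65.5 in the wild-type array. The log2 ratios were -0.17 and -0.25, a mean of -0.21 ± 0.06 (SD over 2 probe sets), inside the central range of all genes. Gbp6 was below the floor in both arrays. Its probe sets 1447927_at and 1438676_at had 26.4 and 22.4 in the mutant array, and 30.8 and 28.6 in the wild-type array, with log2 ratios of -0.22 and -0.35. Gbp4 was measured only by 1421104_at, which is also annotated to Gbp8 and had 58.3 in the mutant array and 63.8 in the wild-type array, a log2 ratio of -0.13. For Gbp4, Gbp6 and Gbp7 the arrays thus differed by less than 1.5-fold, with mutant values slightly lower by every probe set.

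Ifi202b had the lowest log2 ratio of all 18193 genes. Its single-gene probe set 1421551_s_at had 23.0 in the mutant array and 118 in the wild-type array, a log2 ratio of -2.36, or 5.12-fold lower. The mean signal of this probe set lay just under the floor, so Ifi202b is not among the 3 genes counted above. A second probe set, 1457666_s_at, is annotated to Ifi202b together with LOC100044068 and had 30.7 in the mutant array and 177 in the wild-type array, a log2 ratio of -2.52, or 5.75-fold lower. It ranked 2 from the lowest of the 22519 probe sets at or above the floor, of which 0.244% were at least 2-fold lower. Both mutant values were below the floor and both wild-type values above it. With this offset of 32 the ratios were -1.45 and -1.73, so the size of the difference depended on how low signals were treated, while both stayed past 2-fold.

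Probe sets for Ifi203, which encodes a nuclear PYHIN protein, disagreed with each other. The only one tied to Ifi203 alone, 1442828_at, had 128 in the mutant array and 131 in the wild-type array, a log2 ratio of -0.03. The other 3 are shared with the pseudogene Ifi203-ps and with LOC100862473. Of these, 1451567_a_at, which is also annotated to LOC102641031, had 49.3 in the mutant array and 140 in the wild-type array, a log2 ratio of -1.50, or 2.84-fold lower. The probe set 1448775_at had 33.7 in the mutant array and 36.0 in the wild-type array, and 1425008_a_at had 9.19 in the mutant array and 8.80 in the wild-type array, with log2 ratios of -0.10 and 0.06. Only 1 of the 4 Ifi203 probe sets was therefore 2-fold lower, it is annotated to 4 genes, and which of them gave its signal was not tested. No direction for Ifi203 can be given from these arrays.

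Over all 15 probe sets, 14 had log2 ratios below 0 and 7 were at least 2-fold lower, against 49.1% and 0.155% of all 45037 probe sets. The 7 ran from -2.52 to -1.07 and the other 8 from -0.35 to 0.06, with none between these ranges. Of the 15, 6 were at or above the floor in both arrays, 4 were below it in both, and 5 were below it in the mutant array alone. Those 5 belonged to Gbp2, Ifi202b and the shared Ifi203 probe set, and their ratios are the ones most open to the treatment of low signal. Among the weakest 10% of probe sets by mean signal the log2 ratios had an SD of 0.17, against 0.27 over genes at or above the floor, so differences at low signal may have been compressed before deposition. The probes' sequences were not used here, and guanylate-binding genes and Ifi200 genes each resemble one another, so cross-hybridisation within a family was not tested.

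**Figure D2:**
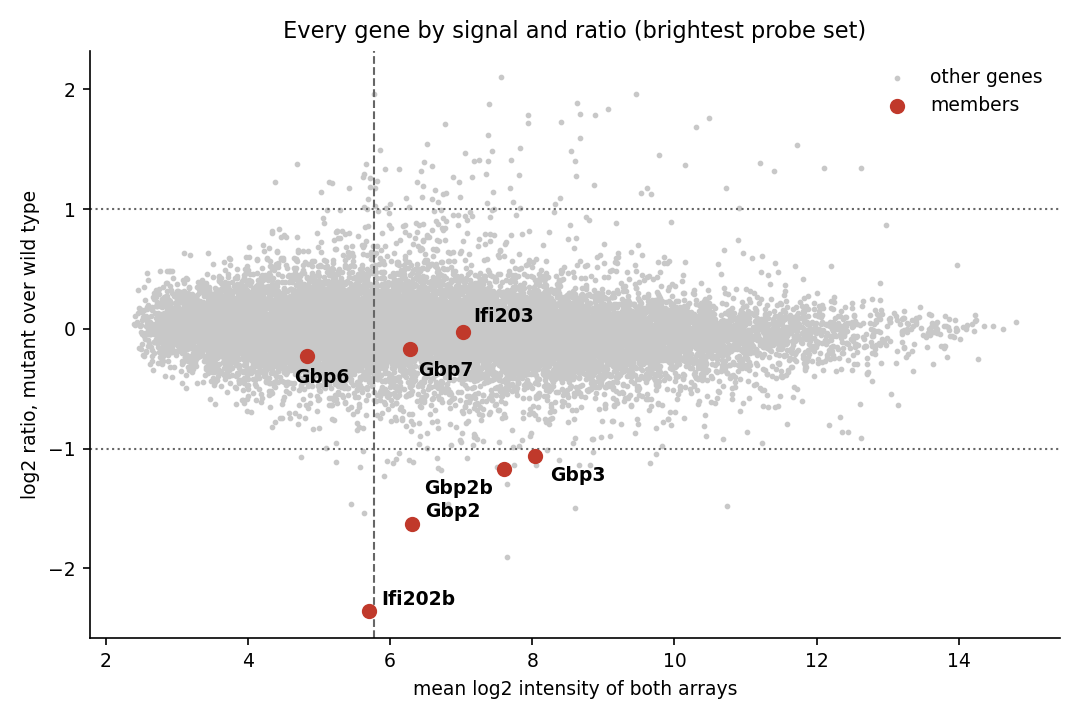
Mean log2 intensity of both arrays (horizontal axis) against the log2 ratio of mutant over wild type (vertical axis) for each of 18193 genes by its brightest single-gene probe set, with dotted lines at 2-fold and the dashed line at the signal floor. Ifi202b, Gbp2, Gbp2b and Gbp3 lie below the lower dotted line, and Gbp6, Gbp7 and Ifi203 lie within the cloud of other genes.

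The genes that differed lie in clusters, and the measured neighbours of other families did not differ as much. The members were chosen with their values known, so this contrast follows from the choice. The order of genes was taken from the RefSeq annotation of GRCm38.p6, after the members' values had been seen. On chromosome 3 the cluster runs Gbp5, Gbp7, Gbp3, Gbp2b, Gbp2, and the log2 ratios of the last 4 were -0.17, -1.07, -1.17 and -1.63 in that order. Gbp5 was not analysed here. The 3 protein-coding neighbours beyond Gbp2 had 0.02 (Kyat3), -0.22 (Gtf2b) and -0.31 (Pkn2), and those on the other side had 0.06 (Unc5c), -0.14 (Bmpr1b) and -0.37 (Pdlim5). All 6 of these neighbours differed by less than 1.5-fold, and 4 of them had ratios below 0.

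The second guanylate-binding cluster, on chromosome 5, showed little difference where it was measured. Gbp6 lies there with Gbp4, Gbp8, Gbp9 and Gbp10. Gbp8 had 6.85 in the mutant array and 6.74 in the wild-type array, a log2 ratio of 0.02, and its signal was far under the floor. Gbp9, Gbp10 and Gbp11 were not analysed here. The neighbouring channel gene Lrrc8c had a log2 ratio of -0.44, the largest in size among the measured genes of that stretch.

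In the Ifi200 cluster on chromosome 1, Ifi202b was the one gene past 2-fold among the 8 with a single-gene probe set. Ifi203 and Ifi202b are adjacent protein-coding genes there, with log2 ratios of -0.03 and -2.36 by those probe sets, while the shared Ifi203 probe set had -1.50. Ifi205, Ifi206, Ifi208, Ifi211 and Ifi214 had no single-gene value here. The neighbours of other families on the side of Ifi202b, Olfr433, Olfr432 and Olfr430, were not analysed. At the far end of the cluster, beyond Aim2, Cadm3 had -0.17 and Ackr1 had 0.26, and Mptx2 was not analysed. The 6 other Ifi200 genes with a single-gene probe set all lay below the floor. The DNA sensor gene Aim2 had 6.32 in the mutant array and 6.72 in the wild-type array, a log2 ratio of -0.09. Ifi207 had -0.03, Ifi204 had 0.09, Ifi213 and Mndal each had 0.14 and Ifi209 had 0.39. Their median of 0.11 was on the other side of 0 from the value of Ifi202b.

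**Figure D3:**
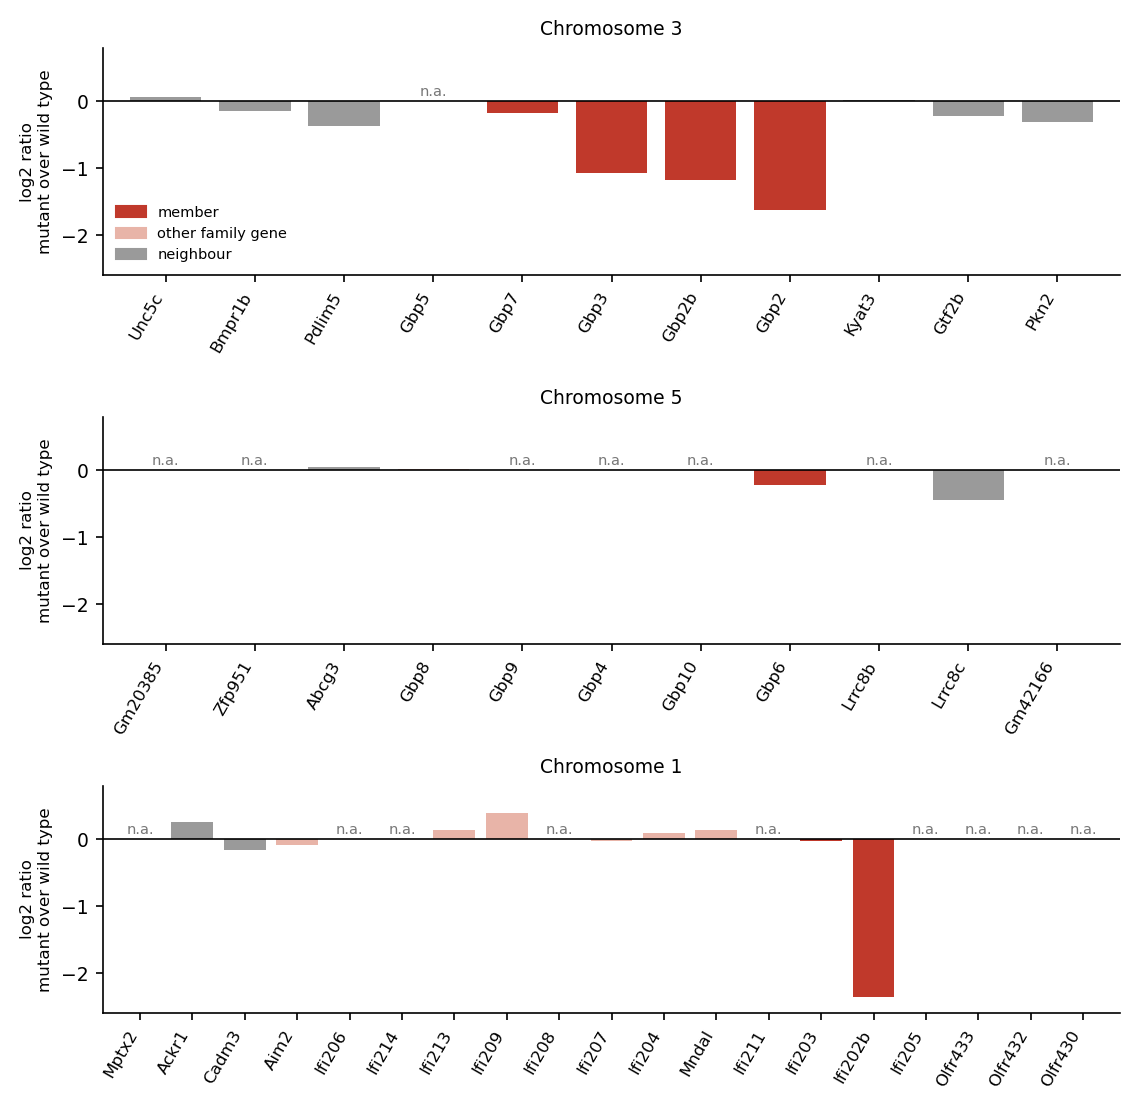
Log2 ratio of mutant over wild type (vertical axis) for protein-coding genes in their order along chromosomes 3, 5 and 1 (horizontal axis, not to scale), with members in dark red, other family genes in pale red, neighbours in grey and n.a. for genes with no single-gene probe set analysed here. The bars of Gbp3, Gbp2b and Gbp2 reach -1.07, -1.17 and -1.63, and that of Ifi202b reaches -2.36, while no measured neighbour passes -0.44.

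Other GTPases of families with interferon-inducible members were not lower as a set. These include the immunity-related GTPases, which work with guanylate-binding proteins at pathogen vacuoles, and the Mx proteins. Of 9 measured, 3 had ratios below 0, 6 above, and the median was 0.16. Of the 4 at or above the floor, none differed 2-fold. Irgm1, a regulator of the other immunity-related GTPases, had 74.1 in the mutant array and 121 in the wild-type array, a log2 ratio of -0.71. Mx2, an antiviral GTPase, had 0.00, Igtp, also called Irgm3, had 0.16, and Irgc1 had 0.31.

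The ligands and receptors of the interferon pathway had similar signals in both arrays. Of 10 measured, 7 had ratios below 0 and 3 above, and the median was -0.04. The 5 at or above the floor were all receptor chains and all below 0, with a median of -0.12. Among all genes at or above the floor 55% were below 0, with a median of -0.02. Ifng, the gene of interferon-gamma, had 10.2 in the mutant array and 9.42 in the wild-type array, and Ifnb1, the gene of interferon-beta, had 37.2 in the mutant array and 34.0 in the wild-type array, all under the floor. The interferon-gamma receptor chains Ifngr1 and Ifngr2 had log2 ratios of -0.02 and -0.16. The type I receptor chain Ifnar2 had -0.03, and Il10rb, a chain shared by the interferon-lambda and interleukin 10 receptors, had -0.17.

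Signalling proteins and transcription factors of the pathway were mostly slightly below 0, and none differed 1.5-fold. Of the 12 that reached the floor 10 were below 0, with a median of -0.14, beside 55% and a median of -0.02 for all genes at or above the floor. Irf1, the transcription factor needed for induction of several guanylate-binding genes in mice, had 2225 in the mutant array and 2889 in the wild-type array, a log2 ratio of -0.38. Irf2, which competes with Irf1 for its sites, had -0.40. The kinase gene Tyk2 had 0.07 and the transcription factor gene Batf2 had 0.02. Inhibitors of the pathway were close to 0, with a median of -0.07 over 10 measured. Of the 9 that reached the floor 6 were below 0, and none was 1.5-fold different. The phosphatase gene Ptpn2 and the SUMO ligase gene Pias1 were lowest at -0.22 and -0.12, and the JAK inhibitor gene Socs1 and the phosphatase gene Ptpn6 highest at 0.10 and 0.02.

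Genes known to be induced by type I interferon were not lower as a set. Of 32 measured, 15 had ratios below 0, 16 above and 1 at 0, and the median was 0.00. None of the 17 at or above the floor differed 1.5-fold. The exonuclease gene Isg20 and Ifi35 were lowest at -0.46 and -0.39, although the 3 probe sets of Ifi35 ran from -0.39 to 0.03. The antiviral membrane protein genes Ifitm3 and Bst2 were highest at 0.29 and 0.28.

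Genes that respond to interferon-gamma and genes of antigen presentation were more often below 0 than above. Of the 22 that reached the floor 16 were below 0, beside 55% of all genes at or above the floor, and the median of these 22 was -0.23. At 1.5-fold, 3 were lower and 1 was higher, beside 2.02% and 1.7% of genes, and none reached 2-fold. Casp4, the gene of mouse caspase-11, whose activation in mouse macrophages involves the guanylate-binding cluster on chromosome 3, had 107 in the mutant array and 199 in the wild-type array, a log2 ratio of -0.90. The chemokine gene Cxcl10 had 3505 in the mutant array and 6122 in the wild-type array, a log2 ratio of -0.80. Serping1, the complement C1 inhibitor gene, was the exception at 0.91, with 186 in the mutant array and 98.7 in the wild-type array, and the Fc receptor gene Fcgr1 had 0.20. Cd74, the third gene past 1.5-fold lower, had -0.60 and is named here after its value was seen. Inflammasome and DNA-sensing genes divided evenly, with 4 below 0 and 5 above among the 9 that reached the floor. Casp4, which is on both lists, was lowest there, followed by the kinase gene Ikbke at -0.31, and the adaptor genes Pycard and Sting1 were highest at 0.28 and 0.21. However, the 3 probe sets of Pycard ran from -0.22 to 0.28, and the 2 of Sting1 from -0.00 to 0.21.

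**Figure D4:**
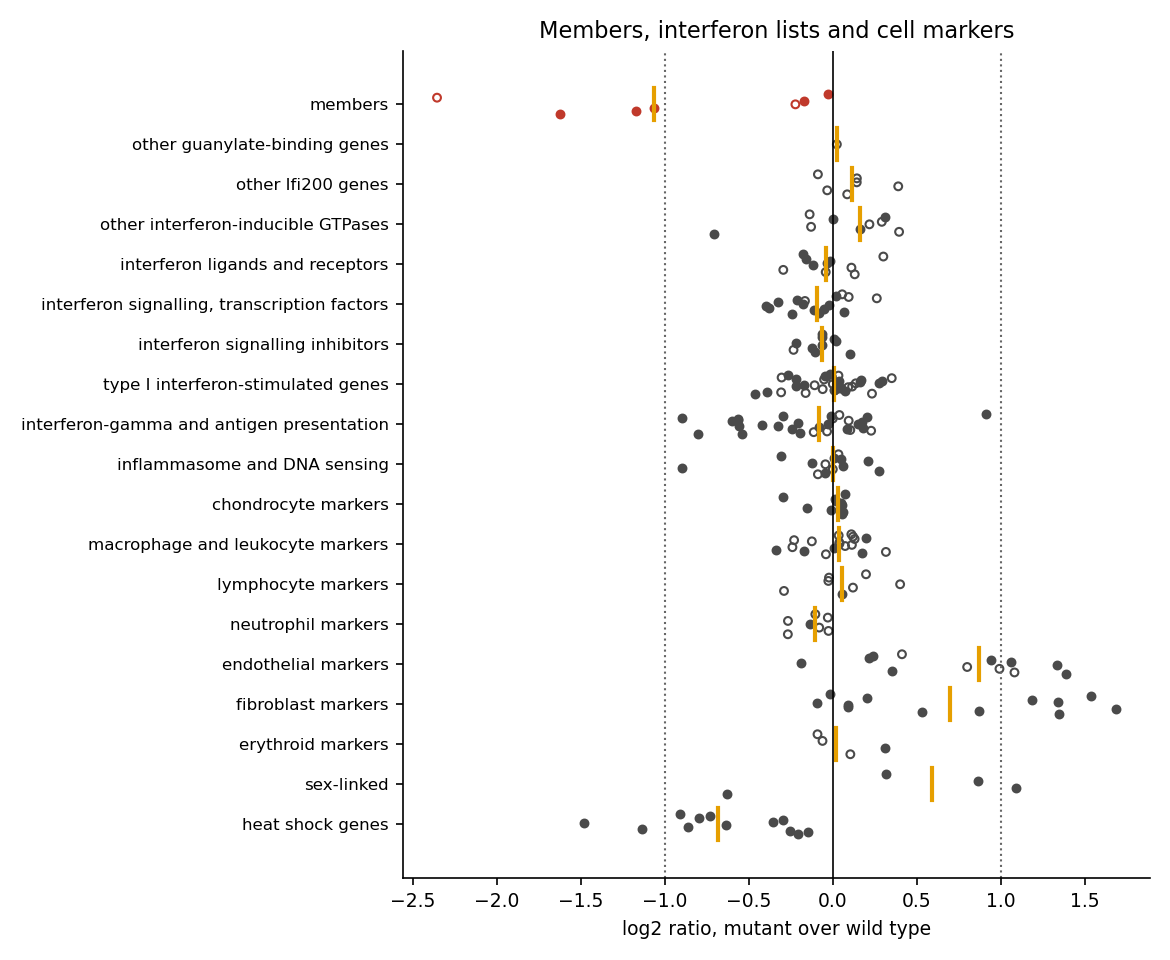
Log2 ratio of mutant over wild type (horizontal axis) for each measured gene of the members and of the lists (vertical axis), with filled points at or above the signal floor, open points below it, orange bars at each list's median over measured genes and dotted lines at 2-fold. The members' median lies at -1.07, the medians of the interferon lists between -0.10 and 0.16, and that of the heat shock genes at -0.68.

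The cells carried the markers of chondrocytes in both arrays, and most markers of immune cells lay under the floor. All 10 chondrocyte markers were above the floor with a median log2 ratio of 0.03, from -0.29 for Sox9 and -0.15 for Matn3 to 0.06 for Acan and 0.07 for Cnmd. Matn1 itself had 4340 in the mutant array and 4373 in the wild-type array, and Col2a1 had 29057 in the mutant array and 27997 in the wild-type array. Probe sets of this kind do not separate the V156D allele from the wild-type one. Guanylate-binding and Ifi200 genes are also expressed by macrophages and other leukocytes, and in a pooled cell sample fewer cells of a type and less RNA per cell cannot be told apart. Of 18 macrophage and leukocyte markers 5 were at or above the floor, and 6 of the 18 had ratios below 0. Their intensities summed to 1880 in the mutant array and 2172 in the wild-type array, of which Cd14 made up 1187 in the mutant array and 1500 in the wild-type array. Ptprc, the pan-leukocyte gene, had 10.8 in the mutant array and 11.1 in the wild-type array. Csf1r, the macrophage receptor gene, had 106 in the mutant array and 94.4 in the wild-type array, and the macrophage marker Cd68 had 106 in the mutant array and 119 in the wild-type array. Laptm5 was highest among those at or above the floor at 0.20, and Cd14 was lowest at -0.34. The median of the 18 was 0.04, and most of the 18 lay below the floor. The members' median of -1.07 follows from how the members were chosen, and the part of leukocyte number in it was not tested.

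Markers of lymphocytes and neutrophils were nearly all under the floor. The 7 lymphocyte markers summed to 198 in the mutant array and 187 in the wild-type array, with Cd3e at 0.05. The 7 neutrophil markers, all below 0 with a median of -0.10, summed to 252 in the mutant array and 276 in the wild-type array, with S100a8 at -0.27 and Camp at -0.13. Of 4 erythroid markers, Alas2 alone was above the floor, at 0.31, and the median was 0.02.

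Other markers differed between the arrays more than those of leukocytes did. Of 12 endothelial markers 11 were above 0 with a median of 0.87, and they summed to 1399 in the mutant array and 950 in the wild-type array. Cdh5, Emcn and Esam were at least 2-fold higher, at 1.39, 1.34 and 1.06, although the second of 2 Cdh5 probe sets, below the floor, had 0.11. Pecam1, whose mean signal was under the floor, had 1.08, and Eng and Egfl7 had 0.21 and -0.19. Of 12 fibroblast markers 10 were above 0 with a median of 0.70, and they summed to 95918 in the mutant array and 68322 in the wild-type array. Col14a1, Tnmd, Col1a1, Postn and Thy1 were at least 2-fold higher, at 1.69, 1.54, 1.35, 1.34 and 1.19, and Fmod and Pdgfra had -0.02 and -0.10. These markers thus lay in the opposite direction to the members.

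Heat shock genes lay in the same direction as the members. All 12 were below 0 with a median of -0.68, and 7 were at least 1.5-fold lower. Dnaja4 and Hspb8 had -1.48 and -1.14, and the inducible Hsp70 genes Hspa1a and Hspa1b had -0.21 and -0.15. The 3 probe sets of Dnaja4 ran from -1.59 to -1.48, whereas the 3 of Hspb8 ran from -1.18 to -0.16. Sex-linked transcripts differed as well, with Xist at -0.63 and the Y-linked genes Eif2s3y, Kdm5d and Uty at 1.09, 0.86 and 0.32. Over all their single-gene probe sets, Xist ran from -1.17 to -0.61, Eif2s3y from 0.43 to 1.09, Kdm5d from -0.04 to 0.86 and Uty from 0.12 to 0.96. Each of these Y-linked genes had 1 probe set at or above the floor. The part of cell makeup, stress during cell release, sex and strain in the lower Gbp2, Gbp2b, Gbp3 and Ifi202b signals was not tested. With 1 pool per genotype, none of these can be told apart from the mutation.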

How the data were processed

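RNA of 1 V156D mutant and 1 wild-type pool of rib chondrocytes was hybridised to 1 array each, from 6 µg of total RNA per the labels' protocols. The authors deposited 1 intensity per probe set and array, on a linear scale. The submitters' processing notes name MAS5, while version, scaling target and detection calls were not stated. MAS5 signals tend to scatter more at low intensity, whereas here the log2 ratios had an SD of 0.17 among the weakest 10% of probe sets and 0.27 over genes at or above the floor. The method behind the deposited values is therefore uncertain. Folds at low signal may be understated, which was not tested. The log2 of each deposited intensity was used with no further normalization. Names came from GEO's annotation of the platform, in which 34945 had 1 symbol, 932 several and 9160 none, and 34741 of the first were found by Entrez identifier in a RefSeq table of GRCm38.p6. Multi-gene probe sets were kept apart.

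The floor was the 50th percentile of mean log2 signal, and the threshold 2-fold. Of 252 list entries, 219 had a gene value. The members and lists were chosen with earlier results of these data known. Named were all members, the measured genes of both families, and of other lists the 2 highest and 2 lowest among genes reaching the floor, genes past 2-fold and defining cell markers. Outside this rule, the ligand genes Ifng and Ifnb1, chromosome neighbours, genes of shared probe sets and Cd74 were also named. With 2 arrays no likeness of patterns was computed. No test between the genotypes was run.

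Alternatives were centred array medians, quantile normalization, loess correction (span 0.3), an offset of 32, floors at the 40th or 60th percentile or none, means over probe sets, leaving out probe sets ending in _s_at, _x_at or _a_at, adding multi-gene probe sets, and thresholds of 1.5-fold and 3-fold. Python 3.11.15, numpy 2.4.6, pandas 2.3.3 and statsmodels 0.14.6 were used.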

Additional observations from a re-analysis of the deposited data

How the results depend on the processing

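Gbp2b was among the genes at least 2-fold lower under 11 of the 12 alternatives to the count, and Gbp2 under 11 of the 12. The count of 3 genes was 3 under centring, quantile normalization, loess, means over probe sets and the 1.5-fold threshold, 4 with multi-gene probe sets, with a floor at the 40th percentile and with none, and 2 with a floor at the 60th percentile, which removed Gbp2, or without probe sets ending in _s_at, _x_at or _a_at, which left Gbp3 and Ifi202b unmeasured. At 3-fold it was 1, Gbp2. With an offset of 32 it was again 3, but Gbp3 was replaced by Ifi202b, and only 13 genes in all were at least 2-fold lower, against 29. No member was 2-fold higher under any alternative. Among all genes reaching the floor in use, 0.256% were at least 2-fold lower in the main setting. Over the other 2-fold settings this share ran from 0.115% with the offset to 0.291% with centring. The share at least 2-fold higher ran from 0.397% with the offset to 0.692% without those suffixes. At 1.5-fold 2.02% of genes were lower and 1.7% higher, and at 3-fold 0.0177% and 0.141%. The members' median was -0.22 without the probe sets ending in those suffixes and -0.64 with multi-gene probe sets, through the members lost or gained. The median of the endothelial markers was 0.43 with the offset, that of the fibroblast markers 1.07 and that of the sex-linked genes 0.39 as means over probe sets. The scalings moved the median of all genes by less than 0.1 on the log2 scale, with values from -0.03 to -0.00. With the offset, the ratios of 6 member probe sets moved by more than the probe set spread of 0.18, among them Gbp2 at -1.15 and -0.82 and the shared Ifi203 probe set at -1.08. No member probe set changed sign under any scaling. No paired analysis was possible because each genotype has 1 array.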

Other observations

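Some interferon-inducible genes were measured only by probe sets shared with other genes and so belong to no list count. Isg15, a ubiquitin-like protein gene of the type I response, shared a probe set with Gm9706 that had 91.7 in the mutant array and 99.7 in the wild-type array, a log2 ratio of -0.12. The GTPase genes Tgtp1 and Tgtp2 shared one with 36.0 in the mutant array and 49.6 in the wild-type array, a log2 ratio of -0.46, all below the signal floor. The exonuclease gene Trex1 shared one with Atrip that had 292 in the mutant array and 379 in the wild-type array, a log2 ratio of -0.37. In the Ifi200 family, a probe set shared by Mndal, Ifi211, Ifi205 and Ifi204 had 17.6 in the mutant array and 12.7 in the wild-type array, a log2 ratio of 0.47, and one shared by Ifi211 and Ifi205 had 19.1 in the mutant array and 17.1 in the wild-type array, a log2 ratio of 0.16. Of these genes, Mndal and Ifi204 also have single-gene probe sets and are among the Ifi200 genes counted above. Gvin1, a very large GTPase gene, shared a probe set with Gm4070 that had 26.8 in the mutant array and 22.6 in the wild-type array, a log2 ratio of 0.25. No shared probe set outside the 15 described above reached 1.5-fold among these genes.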
